A study of Oryza sativa with 9 samples.

Results

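Libraries 4b and 5b of the rice mutant *osmads58* dSpm were set against libraries 1 and 2 of the same mutant. These are 4 of the 9 RNA-seq libraries of the study, all from young panicles of about 1 cm. The methods list the japonica cultivar Nipponbare and the dSpm line, a gift from other researchers, and do not give the background of that line. The 2 pairs were chosen by measured values of these same libraries, their places in a principal component analysis of expression. The separation of the pairs is therefore given as a description with no test. With 2 libraries against 2, an exact two-sided permutation test could not go below p = 0.333. The *osmads58* dSpm line carries a dSpm transposon in the second intron of OsMADS58 and stays fertile. The other 5 libraries are 2 of *osmads58* CRISPR, a sterile knockout with frameshifts in the gene, each pooled from panicles of several plants of 1 transgenic line, and 3 of the wild type. The labels do not say what the letter b in 4b and 5b stands for, and which samples were grown in the field or in a growth chamber is not given in the sources used here. All values come from whole panicles, in which fewer cells of a type and less RNA per cell cannot be told apart.

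OsMADS58 is a C-class MADS box transcription factor. C-class genes specify stamens and carpels and help to end the floral meristem. Inside the young stamen, archesporial cells give rise to the anther wall, with its innermost layer, the tapetum, and to the pollen mother cells that enter meiosis. A panicle of this size holds spikelets of different ages, and a shift in its age changes the amount of RNA from dividing, germ line and meiotic cells.

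The expression level is given in CPM, counts scaled to the size of the library. A gene was said to part the pairs when both libraries of a pair lay beyond both of the other and the means differed by more than 1 in log2 CPM. Counts per library summed to between 65192657 and 83042245. Within the first pair, 4b and 5b were close to each other, with a Pearson correlation of 0.981 across 27251 genes and a biological coefficient of variation of 0.149. Libraries 1 and 2 were not a close pair, with a correlation of 0.926 and a coefficient of 0.611. That coefficient lies among the 4 between the pairs, which ran from 0.523 to 0.632. Libraries 4b and 5b sat at 108 and 109 on the second component, against 51.3 and 16.8 for libraries 1 and 2. On the first component *osmads58* CRISPR lay at -123 and -132 and the wild type at 114, 14.9 and 7.27. *osmads58* dSpm 1, at 126, and wild type 1 lay away from the other libraries of their genotypes, of which dSpm 2 was at 21.4. Where leaving out a library of a pair changes a result, the value is given beside it.

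**Figure D1:**
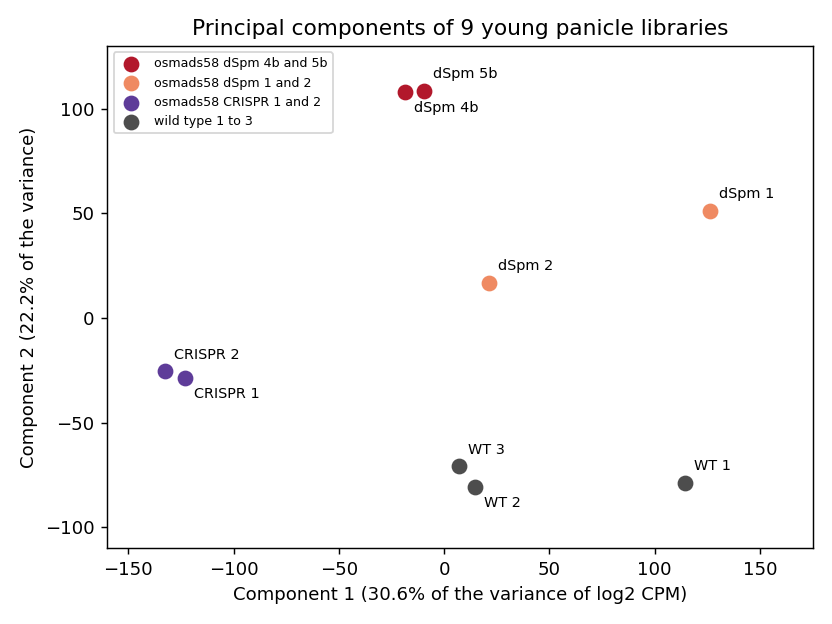
Principal components 1 and 2 of log2 CPM over 27251 genes, with 30.6% and 22.2% of the variance and 1 point per library. *osmads58* dSpm 4b and 5b lie together at 108 and 109 on component 2, whereas *osmads58* dSpm 1 and 2 lie at 126 and 21.4 on component 1, *osmads58* CRISPR at -123 and -132 and wild type 1 at 114.

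The targeted gene checks the labels. OsMADS58 (LOC_Os05g11414) had 1.79 and 2.002 CPM in *osmads58* dSpm 4b and 5b, and 2.097 and 0.719 CPM in *osmads58* dSpm 1 and 2. The pair difference was 0.61, with 1.37 against *osmads58* dSpm 2 alone and -0.15 against *osmads58* dSpm 1 alone. It had 0.270 and 0.471 CPM in *osmads58* CRISPR, and 8.38, 3.29 and 4.01 CPM in the wild type. All 4 dSpm libraries lay below all 3 wild-type libraries, and the 2 pairs overlapped. Averaged over the 4 dSpm libraries the gene was at 1.65 ± 0.634 CPM, against 5.23 ± 2.75 CPM in the wild type (SD, n = 4 and n = 3), a log2 change of -1.66 ± 0.47 (SE) (adjusted p = 0.118, edgeR quasi-likelihood test). In *osmads58* CRISPR the log2 change relative to wild type was -3.81 ± 0.58 (SE, adjusted p = 0.0130, same test).

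Of the 27251 genes that passed the filter on low counts, 3325 (12.2%) were higher in libraries 4b and 5b and 1821 (6.68%) were lower. The filter asked for enough counts in as few as 2 libraries. A weak gene could thus pass through 4b and 5b alone and then count as higher, so the upward share depends in part on the filter. With a filter on a mean of 10 counts over the libraries, 2623 genes were higher and 1722 lower. The genes that parted the pairs upward were mostly weakly expressed. Among genes with a mean of at most 0.5 CPM, 30.9% were higher and 7.89% lower in 4b and 5b, and above 50 CPM 1.39% were higher and 4.59% lower. Among the 13243 genes averaging at least 10 CPM, 439 were higher and 618 lower, so the balance between the directions turned with the level. Libraries 4b and 5b also had more genes with any count, 28915 and 29185, against 25368 and 26569 in libraries 1 and 2. The other libraries had 27059 and 26910 such genes in *osmads58* CRISPR and between 25898 and 27372 in the wild type. The part of this breadth in the result was not tested. Dividing all counts by 4, which matters if 1 read pair weighs 4 counts, left 2069 genes higher and 1496 lower. Against *osmads58* dSpm 2 alone 3535 genes were higher and 3054 lower, and against *osmads58* dSpm 1 alone 5539 were higher and 3016 lower. With 1 library left in a pair the rule is easier to meet.

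With both libraries of each pair, the wild type lay on the side of libraries 1 and 2 more often than on the side of 4b and 5b. Among the 3325 genes higher in 4b and 5b, all 3 wild-type libraries were nearer in log2 CPM to the mean of 1 and 2 for 1129 genes (34.0%), and nearer to the mean of 4b and 5b for 510 (15.3%). The wild-type libraries fell on both sides for the other 1686. Among the 1821 genes lower in 4b and 5b, the wild type was near 1 and 2 for 798 (43.8%) and near 4b and 5b for 376 (20.6%). Among genes averaging at least 10 CPM the shares were larger, with the wild type near 1 and 2 for 236 of 439 higher genes (53.8%) and 401 of 618 lower genes (64.9%). For those genes the wild type was near 4b and 5b in 8.66% and 9.06% of cases. Except for the lower genes at 10 CPM or more, the order depended on library 2. Against *osmads58* dSpm 2 alone 31.5% of the higher genes had the wild type near library 2 and 18.5% near 4b and 5b, with 32.2% and 29.2% of the lower genes. Against *osmads58* dSpm 1 alone the shares near library 1 and near 4b and 5b were 21.6% and 26.5% of the higher and 25.7% and 26.6% of the lower genes. At 10 CPM or more they were 60.1% and 12.2% of the higher and 64.4% and 13.9% of the lower genes against library 2 alone, and 24.0% and 26.0% and 31.7% and 12.0% against library 1 alone.

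For many genes a pair lay outside the range of the wild-type libraries. Libraries 4b and 5b lay above every wild-type library for 2097 of the 3325 higher genes, and below every one for 1093 of the 1821 lower genes. Libraries 1 and 2 lay beyond the wild type in the opposite direction for 790 and 602 of these genes. Both held for 315 higher and 131 lower genes, in which the 2 pairs of 1 genotype sat on opposite sides of the wild type. On a scale where 0 is the mean of 1 and 2 and 1 is the mean of 4b and 5b, the median place of the wild type was 0.34 for the higher and 0.29 for the lower genes.

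**Figure D2:**
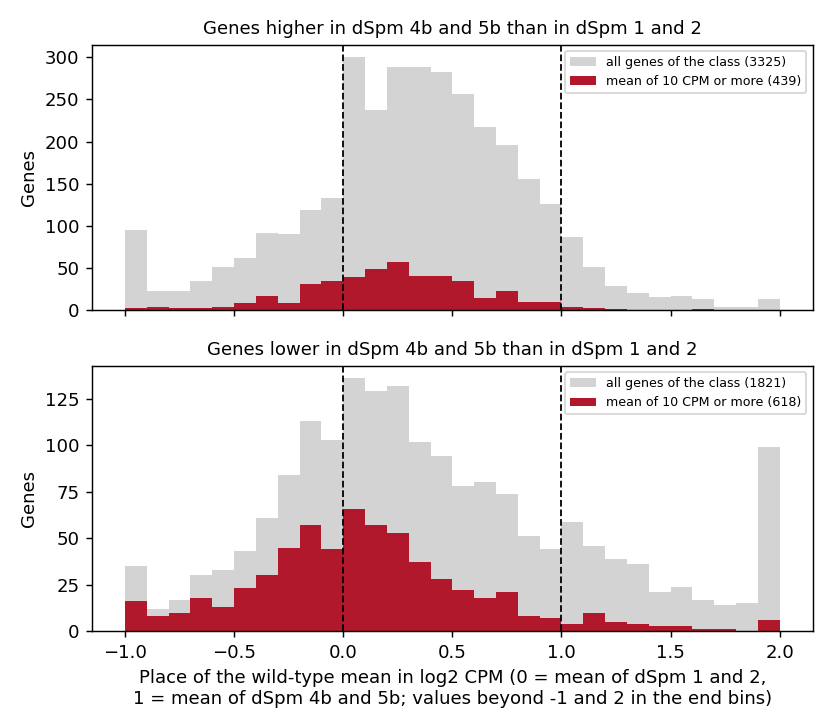
Histograms of the place of the wild-type mean between the mean of *osmads58* dSpm 1 and 2 (0) and the mean of *osmads58* dSpm 4b and 5b (1) in log2 CPM, for 3325 higher and 1821 lower genes, with those of at least 10 CPM in red. At 10 CPM or more the medians are 0.24 for the 439 higher and 0.06 for the 618 lower genes, close to libraries 1 and 2.

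The 37 genes with a name were OsMADS58 and genes of the named meiotic and photosynthetic lists. Among them the largest differences were those of germ cell and meiotic genes, which make up most of the names. Over all genes the pair differences ran from -7.26 to 8.51. The study names 28 meiotic genes by identifier, and all 28 passed the filter. Of these 4 were higher by more than 1 in log2 CPM (*MEL1*, *MEL2*, *PAIR1* and *RPA2A*), 1 was lower (*DMC1A*) and the pairs overlapped for 7. The share of lower genes was 3.57%, against 6.68% of all genes. The pairs overlapped for 12357 of all 27251 genes. The share of higher genes was 14.3%, near the 12.2% of all genes. Over all genes this share fell with the level, from 30.9% at a mean of at most 0.5 CPM to 1.39% above 50 CPM. The comparison was not matched to the levels of the 28. The median difference of the 28 was 0.49, against 0.07 over all genes. It was 0.27 against *osmads58* dSpm 2 alone and 0.71 against *osmads58* dSpm 1 alone.

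*MEL1* (LOC_Os03g58600), which encodes the Argonaute protein of rice germ cells before meiosis, had 272 and 295 CPM in *osmads58* dSpm 4b and 5b, against 48.2 and 54.0 CPM in *osmads58* dSpm 1 and 2. Its level in *osmads58* CRISPR was 46.0 and 78.7 CPM, and in the wild type 122, 124 and 131 CPM. The wild type thus lay between the pairs, and 4b and 5b lay above all other libraries. *MEL1* was detected in all 9 libraries. The pair difference was 2.47 in log2 CPM, and it was 2.39 against *osmads58* dSpm 2 alone and 2.55 against *osmads58* dSpm 1 alone. Over all 4 dSpm libraries the opposite shifts left a log2 change of 0.41 ± 0.61 (SE) against the wild type (adjusted p = 0.798, edgeR quasi-likelihood test). In *osmads58* CRISPR *MEL1* fell against the wild type, with a log2 change of -1.03 ± 0.24 (SE) (adjusted p = 0.0369, same test).

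*MEL2* (LOC_Os12g38460), whose RNA-recognition protein acts at the entry of rice germ cells into meiosis, followed the same order. It had 17.9 and 19.2 CPM in 4b and 5b, against 2.42 and 1.48 CPM in libraries 1 and 2. In *osmads58* CRISPR it had 3.59 and 4.94 CPM and in the wild type 3.65, 6.96 and 6.13 CPM, all between the dSpm pairs. The pair difference was 3.27, the 4 dSpm libraries gave a log2 change of 0.88 ± 0.80 (SE) against the wild type (adjusted p = 0.649, edgeR), and *osmads58* CRISPR one of -0.41 ± 0.35 (SE, adjusted p = 0.471, edgeR).

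*PAIR1* and *RPA2A* had another order, in which *osmads58* CRISPR lay with 4b and 5b. *PAIR1* (LOC_Os03g01590), required for homologous chromosome pairing, had 2.87 and 1.85 CPM in 4b and 5b, against 0.229 and 0.245 CPM in libraries 1 and 2. It had 4.42 and 2.73 CPM in *osmads58* CRISPR and 0.165, 0.188 and 0.701 CPM in the wild type. All 3 wild-type libraries were near libraries 1 and 2, and the gene was upregulated in *osmads58* CRISPR (log2 change 3.32 ± 0.72 (SE), adjusted p = 0.0314, edgeR). Without wild type 2 it was not called.

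*RPA2A* (LOC_Os02g58220), a subunit of the single-stranded DNA binding replication protein A, had 6.44 and 4.99 CPM in 4b and 5b and 0.215 and 0.199 CPM in libraries 1 and 2. The last 2 values are 16 and 13 counts. It had 5.47 and 6.99 CPM in *osmads58* CRISPR. In the wild type it had 0.524 and 0.764 CPM in libraries 2 and 3 and no count in library 1, which allows up to 0.0412 CPM. Its change in *osmads58* CRISPR, 3.83 ± 1.14 on the log2 scale (SE), did not pass the threshold (adjusted p = 0.0716, edgeR).

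*DMC1A* (LOC_Os12g04980), a recombinase of meiotic strand exchange, went the other way. It had 2.39 and 2.32 CPM in 4b and 5b, against 8.16 and 4.85 CPM in libraries 1 and 2. *osmads58* CRISPR was low with 1.68 and 1.60 CPM, and the wild type had 12.2, 5.03 and 4.78 CPM. The wild type again lay with libraries 1 and 2, and *DMC1A* was downregulated in *osmads58* CRISPR (log2 change -2.16 ± 0.49 (SE), adjusted p = 0.0356, edgeR). Rice has a near-identical copy of this gene, and if reads were shared between the copies the level is uncertain.

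The other 23 meiotic genes differed by less than 1 between the pair means or overlapped. *SPO11-1* (LOC_Os03g54084), of the family that makes the DNA breaks of recombination, had 218 and 223 CPM in 4b and 5b, against 134 and 172 CPM in libraries 1 and 2, and 181, 190 and 198 CPM in the wild type. The gene that the study names *PSS1* (LOC_Os01g02890) had 22.8 and 21.8 CPM, against 11.3 and 18.9 CPM, with 20.3, 19.3 and 21.7 CPM in the wild type. *RPA1A* (LOC_Os02g53680), a large subunit of replication protein A, had 40.8 and 36.7 CPM, against 23.8 and 31.7 CPM, with 33.5, 34.1 and 35.8 CPM in the wild type. In these 3 genes, as in *MEL1* and *MEL2*, 4b and 5b lay above every wild-type library and 1 and 2 below every one, for *PSS1* with 21.8 CPM in 5b against 21.7 CPM in wild type 3.

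*ASY1* (LOC_Os09g32930), the axis protein also called PAIR2, had 61.6 and 58.2 CPM in 4b and 5b, against 40.5 and 40.3 CPM in libraries 1 and 2, and the wild type, at 39.3 to 43.3 CPM, lay with 1 and 2. *HEI10* (LOC_Os02g13810), which marks crossover sites, had 17.1 and 15.8 CPM, against 20.8 and 22.4 CPM, with 23.5 to 36.5 CPM in the wild type, so that all 4 dSpm libraries were below it.

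**Figure D3:**
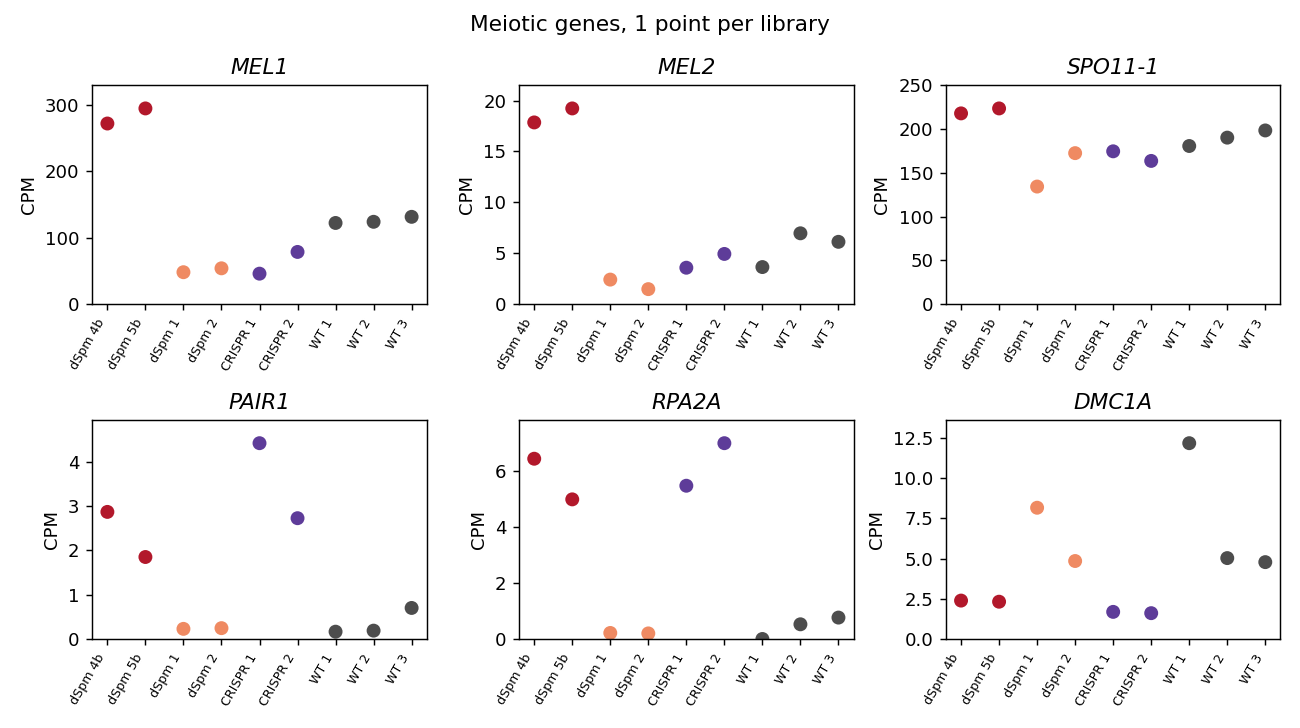
CPM of 6 meiotic genes, 1 point per library, with linear axes that start at 0. *MEL1* reads 272 and 295 CPM in *osmads58* dSpm 4b and 5b, 48.2 and 54.0 CPM in dSpm 1 and 2 and 122 to 131 CPM in the wild type, whereas for *PAIR1* and *RPA2A* both *osmads58* CRISPR libraries lie with 4b and 5b.

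Most genes of the study's cell cycle list were higher in 4b and 5b. The list holds 18 genes, of which 12 (66.7%) were higher and 2 (11.1%) lower in 4b and 5b, against 12.2% and 6.68% of all genes. The median pair difference was 1.72, with 1.58 against *osmads58* dSpm 2 alone and 1.86 against *osmads58* dSpm 1 alone. For 11 of the 12 higher genes and both lower genes all 3 wild-type libraries lay near libraries 1 and 2. This held for 34.0% of all higher and 43.8% of all lower genes. All 18 genes passed the test in *osmads58* CRISPR against the wild type, 14 up and 4 down, against 4.32% and 6.00% of all genes tested. The study drew this list from genes that it called on these same samples. These counts, the shares that part the pairs and the place of the wild type are therefore not independent evidence of a direction. All 12 higher genes were up and both lower genes down in *osmads58* CRISPR, against 14.9% of all higher and 24.9% of all lower genes. Of all genes up there, 37.3% were higher in 4b and 5b. No gene of the list was called over the 4 dSpm libraries against the wild type. Of all genes 1.18% were up and 0.268% down there. That test counts the distance between the pairs as error, and nothing was read from the absence of calls. The deposited files pair no identifier with a name, and the members are given by identifier.

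LOC_Os05g41390, also on the study's meiosis list, had 21.7 and 18.3 CPM in 4b and 5b, against 0.995 and 4.46 CPM in libraries 1 and 2. It had 39.99 and 46.2 CPM in *osmads58* CRISPR and 1.59, 6.31 and 6.12 CPM in the wild type. The pair difference was 3.22, but 2.15 against *osmads58* dSpm 2 alone. *osmads58* dSpm 1 and wild type 1 were the lowest libraries of their genotypes. LOC_Os02g55410 had 26.1 and 20.6 CPM, against 1.75 and 3.88 CPM, with 22.9 and 28.7 CPM in *osmads58* CRISPR and 4.82, 4.48 and 5.33 CPM in the wild type. Its levels in 4b and 5b reached those of *osmads58* CRISPR, and those in libraries 1 and 2 were below every wild-type library. Among the lower genes, LOC_Os10g39920 had 84.7 and 77.2 CPM in 4b and 5b, against 334 and 144 CPM in libraries 1 and 2, with 56.7 and 53.4 CPM in *osmads58* CRISPR and 422, 188 and 181 CPM in the wild type. Its pair difference was -1.44, but -0.84 against *osmads58* dSpm 2 alone, under the size set for parting the pairs.

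Genes of the study's meiosis list followed the cell cycle genes with smaller differences. Of its 27 genes, 5 of which are also on the cell cycle list, 10 (37.0%) were higher and 2 (7.41%) lower in 4b and 5b, and the median difference was 0.79. The shares were 12.2% and 6.68% among all genes, and 37.3% of all genes up in *osmads58* CRISPR were higher. Against *osmads58* dSpm 2 alone the median was 0.62 and 8 genes were higher. Against *osmads58* dSpm 1 alone it was 1.36 and 16 were higher. All 3 wild-type libraries lay near libraries 1 and 2 for 8 of the 10 higher genes, against 34.0% of all higher genes. In *osmads58* CRISPR 19 genes of the list were up and 4 down, against 4.32% and 6.00% of all genes tested. This list, too, was chosen by the study on these samples. Neither these counts nor the place of the wild type are independent evidence. LOC_Os09g36740 had 19.7 and 13.5 CPM in 4b and 5b, against 2.76 and 4.36 CPM in libraries 1 and 2, with 31.6 and 34.7 CPM in *osmads58* CRISPR and 1.36, 3.95 and 4.57 CPM in the wild type. LOC_Os04g41110 had 226 and 216 CPM, against 348 and 289 CPM, with 61.9 and 59.9 CPM in *osmads58* CRISPR and 356 to 561 CPM in the wild type, and its pair difference of -0.52 was below the size set for parting the pairs.

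In each library the list medians, taken after each gene's mean over the 9 libraries was removed, gave the order. For the cell cycle list they were 1.14 and 0.96 in 4b and 5b and -0.97 and -0.56 in libraries 1 and 2. The medians were 1.18 and 1.49 in *osmads58* CRISPR and -1.08, -0.72 and -0.50 in the wild type. For this list 4b and 5b lay near *osmads58* CRISPR, and libraries 1 and 2 within the range of the wild type. For the meiosis list the medians were 0.39 and 0.34 in 4b and 5b and -1.04 and -0.22 in libraries 1 and 2. In *osmads58* CRISPR they were 1.09 and 1.26 and in the wild type -0.999, -0.33 and -0.28, with 4b and 5b between these genotypes. The study chose both lists on these samples, so the distance between *osmads58* CRISPR and the wild type in these medians is not independent evidence.

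**Figure D4:**
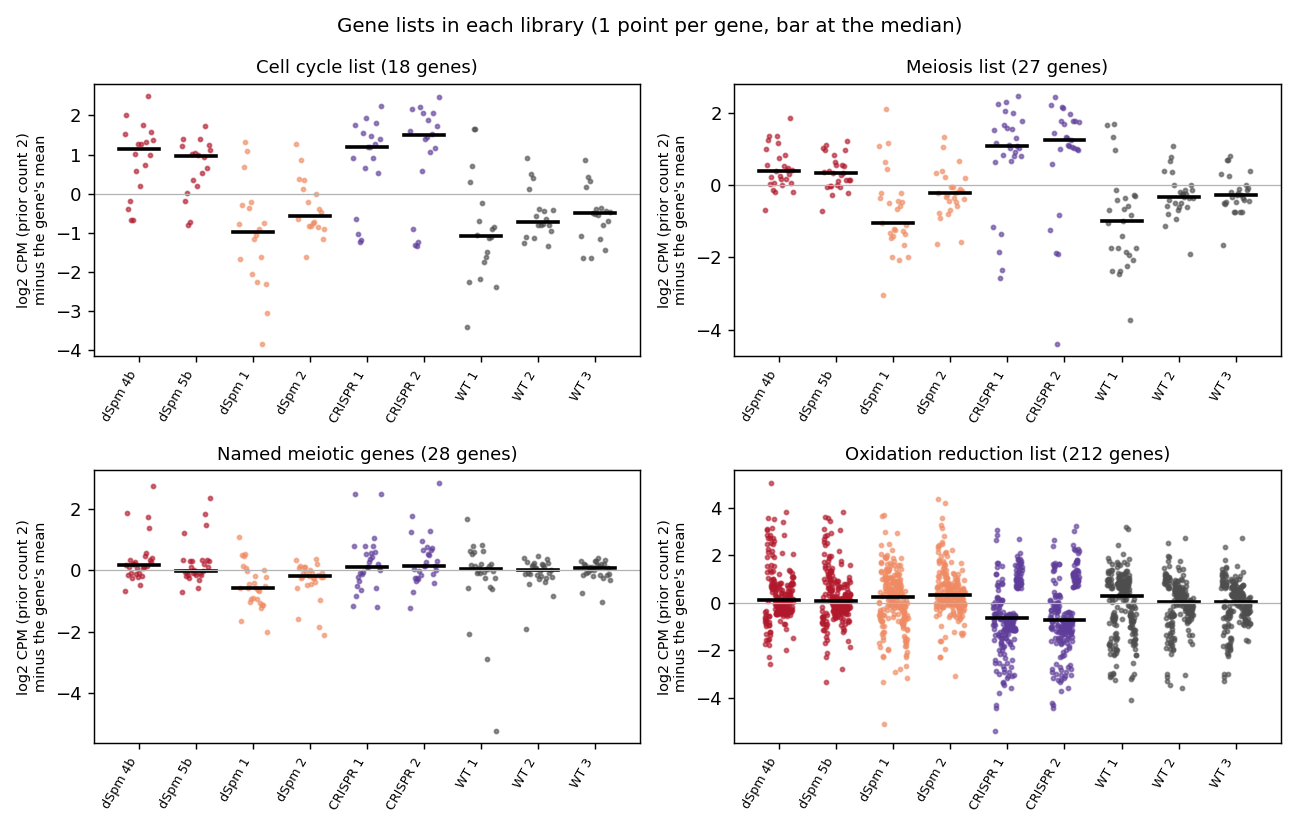
log2 CPM minus the gene's mean over 9 libraries, 1 point per gene and a bar at the median, for 4 gene lists in each library. For the 18 cell cycle genes the medians in *osmads58* dSpm 4b and 5b are 1.14 and 0.96, against -0.97 and -0.56 in dSpm 1 and 2.

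Redox enzymes, many of which respond to stress and act in the anther, parted the pairs in both directions, with a lean downward at smaller differences. The study's oxidation reduction list has 212 genes, all of which passed the filter. Of these 23 (10.8%) were higher and 22 (10.4%) lower in 4b and 5b, against 12.2% and 6.68% of all genes. Among differences of any size without overlap of the pairs, 48 genes were higher and 79 lower, against 8196 and 6698 of all 27251 genes. The median difference was -0.22, against 0.07 over all genes and -0.05 over those of at least 10 CPM. Against *osmads58* dSpm 2 alone 23 were higher and 42 lower, and against *osmads58* dSpm 1 alone 44 were higher and 31 lower. The wild type lay near libraries 1 and 2 for 16 of the 23 higher and 16 of the 22 lower genes, against 34.0% and 43.8% of all such genes. In *osmads58* CRISPR 41 genes of the list were up and 94 down, against 4.32% and 6.00% of all genes tested. Of the 22 genes lower in 4b and 5b, 18 were down in *osmads58* CRISPR, and 13 of the 23 higher genes were up, against 24.9% of all lower and 14.9% of all higher genes. The study chose this list on these samples as well, and nothing was read from these counts.

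LOC_Os05g48930 had the lowest pair difference of the list, -2.49. It had 3.22 and 5.46 CPM in 4b and 5b, against 23.4 and 24.2 CPM in libraries 1 and 2, with 8.28 and 5.81 CPM in *osmads58* CRISPR and 29.6, 24.1 and 31.8 CPM in the wild type. LOC_Os01g72270 differed by -2.14, with 32.3 and 26.0 CPM in 4b and 5b, 143 and 114 CPM in libraries 1 and 2, 2.43 and 1.93 CPM in *osmads58* CRISPR and 52.9, 47.4 and 31.6 CPM in the wild type. In this gene all 3 wild-type libraries lay near 4b and 5b, libraries 1 and 2 lay above them and *osmads58* CRISPR below. Among the higher genes LOC_Os10g36390 had 24.7 and 17.1 CPM in 4b and 5b, against 3.05 and 11.1 CPM in libraries 1 and 2, with 38.4 and 48.5 CPM in *osmads58* CRISPR and 4.13, 13.6 and 13.2 CPM in the wild type. Its pair difference of 1.81 was 0.88 against *osmads58* dSpm 2 alone, under the size set.

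Photosynthetic genes, which here stand for green tissue in the panicle, did not part the pairs. The study names 9 of them, 8 passed the filter, and none differed by more than 1 between separate pairs. Among all genes 12.2% were higher and 6.68% lower, so with 8 genes little can be read from this. The median difference was -0.04, but it was 0.16 against *osmads58* dSpm 2 alone and -0.21 against *osmads58* dSpm 1 alone. Their summed level was 122 and 120 CPM in 4b and 5b, 144 and 107 CPM in libraries 1 and 2, 152 and 125 CPM in *osmads58* CRISPR and 97.5 to 106 CPM in the wild type. The largest difference upward was that of *OsAtpC* (LOC_Os07g32880), the gamma subunit of the chloroplast ATP synthase, with 11.5 and 12.8 CPM in 4b and 5b, against 4.41 and 8.88 CPM in libraries 1 and 2, and 5.30 to 6.48 CPM in the wild type. *OsPsaN* (LOC_Os12g08770) and *OsPsaF* (LOC_Os03g56670), subunits of photosystem I, were the 2 genes of the list called in *osmads58* CRISPR, both up. Of all genes tested there 4.32% were up.

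The AP2 domain gene LOC_Os03g64260 had overlapping pairs, with 4.14 and 7.10 CPM in 4b and 5b, against 6.79 and 10.05 CPM in libraries 1 and 2. It was downregulated in *osmads58* CRISPR, with 1.16 and 2.39 CPM, against 4.46 to 7.90 CPM in the wild type (log2 change -1.79 ± 0.42 (SE), adjusted p = 0.0393, edgeR).

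Over all genes averaging at least 10 CPM, the largest pair differences were close to presence against absence. LOC_Os12g38900 had 36.0 and 33.9 CPM in 4b and 5b, against 0.511 CPM in library 1 and no count in library 2, which allows up to 0.0459 CPM. The wild type was split, with 2.70 CPM in library 1 and 26.5 and 27.2 CPM in libraries 2 and 3, and *osmads58* CRISPR had 1.42 and 4.09 CPM. LOC_Os03g29340 had 70.5 and 72.7 CPM in 4b and 5b, against 2.31 and 1.24 CPM in libraries 1 and 2. It also varied within the other genotypes, with 26.2 and 0.831 CPM in *osmads58* CRISPR and 33.9, 1.53 and 2.31 CPM in the wild type.

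Downward, LOC_Os01g21135 had no count in 4b and 5b, which allows up to 0.0381 and 0.0378 CPM, against 0.269 and 12.5 CPM in libraries 1 and 2. The wild type had 5.35, 66.2 and 62.3 CPM, and *osmads58* CRISPR 0.270 and 0.314 CPM. LOC_Os11g45990 had 0.432 and 0.302 CPM in 4b and 5b, against 13.3 and 10.8 CPM in libraries 1 and 2, 37.1 and 45.8 CPM in *osmads58* CRISPR and 19.2, 23.7 and 26.7 CPM in the wild type. Here 4b and 5b stood alone, and all other libraries expressed the gene.

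*osmads58* CRISPR against the wild type shares no library with the 2 pairs and was used as a separate readout of the genes that part them. Of 25780 genes tested, 1113 (4.32%) were upregulated and 1547 (6.00%) downregulated in *osmads58* CRISPR. Among the genes higher in 4b and 5b, 415 of the 2791 tested (14.9%) were up and 43 (1.54%) down. Among the genes lower in 4b and 5b, 424 of the 1701 tested (24.9%) were down and 29 (1.70%) up. Conversely, 37.3% of all genes up in *osmads58* CRISPR were higher in 4b and 5b, and 27.4% of those down were lower. Among genes of at least 10 CPM the shares were 40.1% up and 42.7% down, against 3.34% and 7.97% of all genes at that level. *osmads58* dSpm 1 and wild type 1, which lay away from their genotypes on the first component, each enter 1 of the comparisons. Without these 2 libraries the shares were 19.0% and 27.0%, against 7.12% and 7.76% of all genes tested. In 1 fit of all 9 libraries, in which the spread between the pairs is part of the error, the shares were 2.62% up and 8.68% down, against 2.04% and 3.51%. The calls also depended on single libraries. Without wild type 1 there were 1803 genes up and 1965 down, without wild type 2 there were 401 and 871, and without wild type 3 there were 552 and 1006. Without either *osmads58* CRISPR library edgeR called 0 genes, with 5062 and 4565 at an unadjusted p-value under 0.05.

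**Figure D5:**
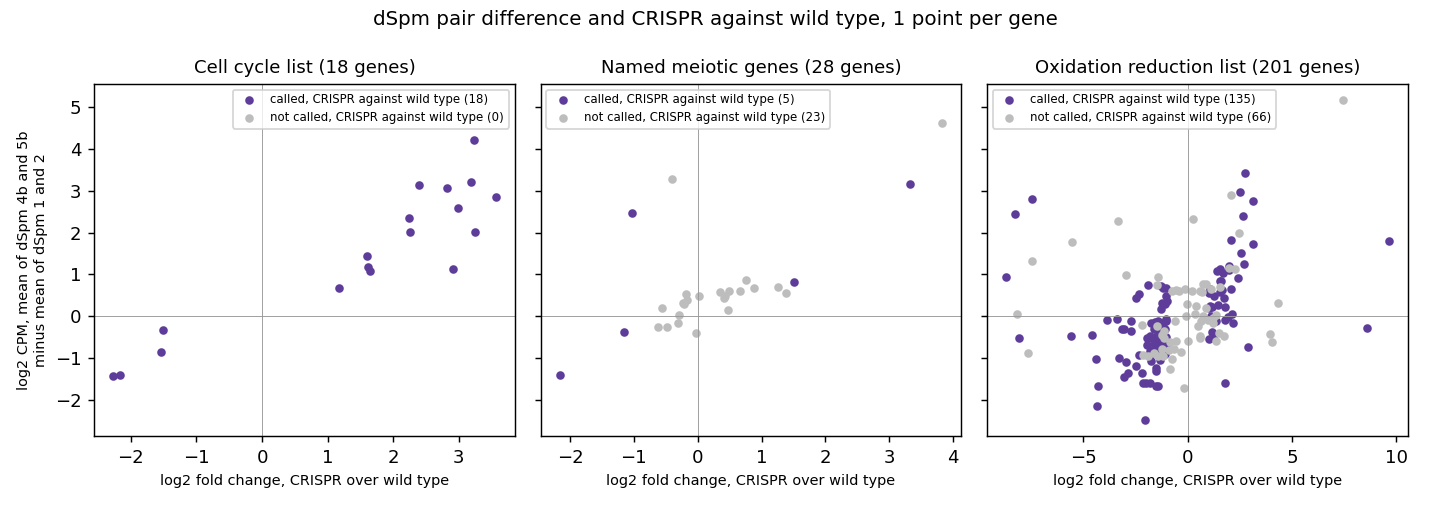
Mean log2 CPM of *osmads58* dSpm 4b and 5b minus that of dSpm 1 and 2, against the log2 change in *osmads58* CRISPR relative to wild type, 1 point per gene, with genes called in *osmads58* CRISPR in purple. All 18 cell cycle genes are called, 14 up and 4 down, while *MEL1* and *MEL2* lie at pair differences of 2.47 and 3.27 with fold changes of -1.03 and -0.41.

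Over all 4 libraries, *osmads58* dSpm had 321 genes up (1.18%) and 73 down (0.268%) against the wild type. Of the genes higher in 4b and 5b 15 (0.451%) were up, and of those lower 5 (0.275%) were down. The test of the 4 libraries counts the distance between the pairs as error, and nothing was read from these shares. With each dSpm or wild-type library left out in turn, the counts ran from 52 (without wild type 3) to 498 up (without *osmads58* dSpm 1) and from 12 (without wild type 2) to 452 down (without *osmads58* dSpm 2).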

How the data were processed

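The 9 samples are RNA from 1 cm young panicles, with 1 library each. According to the methods, the authors aligned paired reads with Hisat 2.1.0 to MSU v7.0 and ran Stringtie 1.3.3b for the gene levels. The deposited values are estimated counts per gene as whole numbers, and the step from coverage to counts is not given in the sources used here. Among counts from 1 to 40, 37.2% to 40.7% per library were multiples of 4, so limits set by counting may be too narrow. Where a gene had no count, 3 counts were taken as the upper limit.

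The analysis used edgeR 4.0.16 in R 4.3.3 (TMM factors, filterByExpr by 4 groups, log2 CPM with a prior count of 2). Of 56143 genes, 27251 passed. *osmads58* dSpm was tested against the wild type in 1 fit of 9 libraries, and *osmads58* CRISPR in a fit of its 2 libraries with the 3 of the wild type, by edgeR's quasi-likelihood test. A call needed a p-value adjusted by the Benjamini-Hochberg method under 0.05 and a log2 change beyond 1. The standard error is the fold change over the root of F. That replicates of dSpm and the wild type are separate plants is not stated for each library. The steps were tested on simulated data.

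The members and lists were chosen with earlier results of these data known. Named genes were OsMADS58 and genes that the study pairs with a name, and per list and over all genes those with the largest pair difference at a mean of at least 10 CPM, of which at most 2 unnamed identifiers per direction are printed. No table used here pairs the identifiers with symbols (0 matched), so organ identity and most stress genes were not analysed here, and no sequences are shown. Alternatives were DESeq2 1.42.0, other scaling factors, filters and prior counts, counts divided by 4, a log2 threshold of 2, a replicate block and each library left out.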

Additional observations from a re-analysis of the deposited data

Results flagged for a closer look

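For 5 of the 37 genes that the study names (13.5%), both libraries 4b and 5b lay above every wild-type library and both libraries 1 and 2 below every one, so that the 2 pairs of 1 genotype lay on opposite sides. Over all genes this held in either direction for 795 of 27251 (2.92%). The pair differences in log2 CPM were 3.27 for *MEL2*, 2.47 for *MEL1*, 0.61 for *PSS1*, 0.54 for *SPO11-1* and 0.49 for *RPA1A*. The last 3 are under the size of 1 set for parting the pairs, and that of *PSS1* was 0.24 against *osmads58* dSpm 2 alone. These differences were not tested, since the pairs were chosen on these data.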

How the results depend on the processing

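Under other scaling factors, filters, prior counts and counts divided by 4, 383 of 390 pair differences of 65 genes, those with a name and those chosen by size, moved by less than the spread within the pairs and 7 by more, and 0 changed sign. Leaving out a library of a pair changed the sign for 8 of the 65 genes, all with a difference under 1, moved 34 by over 1.5 times, and took 5 of the 31 with a difference over 1 under it. Genes parting the pairs numbered 1611 higher and 509 lower at a log2 difference over 2, 2069 higher with counts divided by 4, and 439 and 618 at 10 CPM or more, a limit chosen after seeing the data. Leaving out each dSpm library gave 3535 to 5539 higher and 1973 to 3054 lower, the highest values without *osmads58* dSpm 2 and without *osmads58* dSpm 1. List medians over the same settings ran from -0.31 to -0.082 for oxidation reduction (-0.13 with upper-quartile factors), 1.58 to 1.86 for the cell cycle, 0.62 to 1.36 for the meiosis list, -0.21 to 0.16 for photosynthesis and 0.27 to 0.71 for the named meiotic genes.

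The share of genes with the wild type near libraries 1 and 2 ran from 21.6% to 43.4% (higher) and 25.7% to 51.9% (lower), and near 4b and 5b from 14.4% to 30.4% and 19.4% to 34.2%. Without *osmads58* dSpm 1 and wild type 1 together, added after seeing the data, the shares were 42.1% and 47.1% near library 2 and 28.8% and 36.1% near 4b and 5b. At 10 CPM or more they were 53.8%, 64.9%, 8.66% and 9.06%, then 60.1%, 64.4%, 12.2% and 13.9% without *osmads58* dSpm 1, and 24.0%, 31.7%, 26.0% and 12.0% without *osmads58* dSpm 2.

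For *osmads58* CRISPR, DESeq2 called 1686 genes up, and 1 fit of all 9 libraries 555 up and 957 down. Leaving out libraries gave 0 to 1803 up and 0 to 1965 down. Without either CRISPR library edgeR called 0, with 5062 and 4565 genes at an unadjusted p-value under 0.05, and DESeq2 was not run there. Without wild type 2 there were 401 up and 871 down. With libraries left out, the share of genes higher in 4b and 5b that were up ran from 0 to 23.4% and that of lower genes that were down from 0 to 29.2% (5.63% and 15.4% without wild type 2). By DESeq2 they were 21.2% and 32.2%, with counts divided by 4 26.7% and 31.3%, in 1 fit of all libraries they were 2.62% and 8.68%, and at 10 CPM or more 40.1% and 42.7%. For *osmads58* dSpm against the wild type, DESeq2 gave 920 up and 318 down, the fit of those groups only 195 and 41, and leaving out libraries 52 to 498 up and 12 to 452 down. The causes were not tested.

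Wild type, dSpm and CRISPR share the replicate numbers 1 and 2. Deviations of same-numbered wild-type and CRISPR libraries had correlations of -0.0209 and -0.024, and those of wild type with dSpm 1 and 2 had 0.321 and 0.193. With 2 such pairs and no label on what a number stands for, the dSpm and wild-type libraries were not taken as paired, and whether they are is not known. With the replicate block, dSpm had 135 genes up and 17 down and CRISPR 1462 up and 1688 down, and the shares were 18.2% and 27.1%.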

Other observations

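Identifiers of this annotation carry the chromosome number, and the genes that part the pairs were spread over all 12 chromosomes. Between 10.5% (chromosome 10) and 15.8% (chromosome 11) of the genes of a chromosome were higher in *osmads58* dSpm 4b and 5b, and between 5.74% (chromosome 2) and 8.12% (chromosome 10) were lower. The gene LOC_Os06g48970, which the study used as an internal reference for quantitative PCR, had 47.2 and 45.2 CPM in 4b and 5b, against 66.6 and 47.9 CPM in libraries 1 and 2, with 41.0 and 43.4 CPM in *osmads58* CRISPR and 89.7, 55.2 and 55.4 CPM in the wild type. Its highest levels were in *osmads58* dSpm 1 and wild type 1, which also lay away from the other libraries of their genotypes on the first component.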
